A study of Mus musculus with 21 samples.

Results

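The 5 genes *Fam78b*, *Clec14a*, *Scrg1*, *Adcy1* and *Shisa2* were selected from a table of 22050 gene entries for large differences between p16-expressing and control keratinocytes. They are 5 of the 12782 entries that passed a filter of a mean normalised read count of at least 1 over all samples. Since the same values chose them, their differences between the groups are given as a description, with no test, and nothing is supported by them. *Fam78b* in control cells and *Scrg1* in p16 cells had a group mean under that filter, so each passed through the group in which it was high.

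GFP-expressing epidermal keratinocytes were sorted from back skin in 4 samples of a p16 group, whose mice were K5-rtTA/tet-GFP/tet-p16, and 4 samples of a control group, whose mice were K5-rtTA/tet-GFP, to ask what prolonged p16 expression changes in these cells. Both groups had a mixed background of FVB, C57Bl and 129sv, and both received doxycycline from 3 weeks of age for 6 months, so the controls shared the rtTA driver, the GFP transgene and the drug. Each sample pooled about 80000 cells of 3 mice, which leaves the spread between single mice unmeasured, and cells bearing CD140a (a fibroblast antigen, encoded by *Pdgfra*), CD45 (immune cells) or CD31 (endothelial cells, encoded by *Pecam1*) were gated out. The keratin 5 promoter that drives rtTA is active in the basal epidermis and also in the hair follicle and the outer cells of the sebaceous gland, so the sorted cells can come from any of these.

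The values are normalised read counts from 3′ libraries, in which a transcript is read near its 3′ end. They were not divided by transcript length, and levels were not compared between genes. The control libraries held 3414362, 2068248, 3067190 and 1760953 reads in replicates 1 to 4, and the p16 libraries held 3150237, 3202975, 2884544 and 3169274. One read was worth between 0.742 and 1.53 units, so values under about 5 rest on a few reads. The labels word the library protocol of replicate 3 differently in both groups.

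The label of the cells was checked first. The basal keratins *Krt5* and *Krt14* stood at 13137 ± 4273 and 11699 ± 3269 in control cells and at 10044 ± 598 and 9690 ± 584 in p16 cells (mean ± SD, n = 4), and of the suprabasal keratins *Krt1* was at least 1205 and *Krt10* at least 2688 in every sample. The transgene entry hsCDKN2A was read at 0.7, 1.3, 2.5 and 1.5 in control replicates 1 to 4, which lack the transgene, and at 1.6, 10.1, 16 and 7.4 in the p16 group, in the same order. The library labelled p16 replicate 1 thus lay within the control range, at 2 reads, while the other p16 libraries held 9 to 18 reads. The groups of hsCDKN2A overlapped, and its difference did not reach an adjusted p under 0.05 (limma, adjusted p = 0.0952). EGFP, the reporter used for sorting, was at least 3162 in all 8 libraries, and was 5330 ± 809 in control and 3555 ± 341 in p16 cells (SD, n = 4; limma, adjusted p = 0.0167), lower in each p16 sample than in each control sample. Differences are therefore also given without the library labelled p16 replicate 1.

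As background, *Clec14a* encodes a C-type lectin of the cell surface known from endothelial cells, where it binds the matrix protein multimerin 2, and *Scrg1* encodes a small secreted protein found in brain, cartilage and mesenchymal cells that has been linked to the receptor Bst1. *Shisa2* encodes a protein of the endoplasmic reticulum that holds back immature Frizzled and FGF receptors and so dampens Wnt and FGF signalling, and *Adcy1* encodes an adenylyl cyclase that makes cAMP when calcium stimulates it, best known from neurons. The function of *Fam78b* is poorly described.

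*Clec14a* (ENSMUSG00000045930, 1 exon, minus strand, chr12:58264720-58269290 in GRCm38) was read at 7.4, 6.4, 5.0 and 3.1 in control replicates 1 to 4 and at 37.6, 42.2, 34.6 and 19.7 in p16 replicates 1 to 4. Each p16 sample lay above each control sample, and the lowest p16 value was 2.66 times the highest control value. The group means were 5.48 ± 1.86 in control and 33.5 ± 9.73 in p16 cells (SD, n = 4), a log2 difference of 2.41, and 2.34 without the library labelled p16 replicate 1. The reads were 5.82-fold higher in p16 cells, at 164 against 23 in all (exact 95% counting interval 3.75 to 9.44). Such intervals cover counting error only, and whether reads copied from 1 molecule were counted once is not given in the sources used here. The variance between samples was 3.45 times the counting variance for *Clec14a* in p16 cells and 0.55 times in control cells. For *Adcy1* it was 6.00 times in control and 1.81 times in p16 cells, and for *Fam78b* 0.84 and 2.02 times. For *Scrg1* it was 1.04 and 0.64 times. The intervals of *Clec14a*, *Adcy1* and *Fam78b* are thus too narrow for the spread between samples. All log2 differences here are on the scale of log2(value + 1), which understates the change of a gene with low values. In sorted cells measured in bulk, more cells expressing a gene and more RNA per cell cannot be told apart.

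*Scrg1* (ENSMUSG00000031610, 3 exons, plus strand, chr8:57455923-57477585) was read at 13.4, 9.0, 13.4 and 19.9 in control cells and at 0.0, 0.8, 0.0 and 0.8 in p16 cells. Every control sample was above every p16 sample, and the p16 group held 2 reads in all against 54 in the control group. The ratio of summed reads, allowing for depth, was 33.1-fold higher in control cells, with an exact 95% counting interval of 8.73 to 280.1. The log2 difference, p16 minus control, was -3.43, and -3.29 without the library labelled p16 replicate 1.

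*Shisa2* (ENSMUSG00000044461, 2 exons, plus strand, chr14:59625308-59631660) was read at 94.2, 77.0, 119.4 and 91.7 in control cells and at 8.8, 15.6, 12.4 and 6.6 in p16 cells. The groups did not overlap, and the lowest control sample held 4.94 times the value of the highest p16 sample. The means were 95.6 ± 17.6 and 10.9 ± 3.97 (SD, n = 4), and the log2 difference was -3.07, or -3.00 without the library labelled p16 replicate 1. Replicate 3 was the highest of the control samples, and replicate 2 the highest of the p16 samples.

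*Adcy1* (ENSMUSG00000020431, 20 exons, plus strand, chr11:7063489-7178506) was read at 49.7, 20.5, 26.7 and 24.4 in control cells and at 0.8, 3.9, 0.9 and 0.8 in p16 cells. Control replicate 1 was the highest of its group, and p16 replicate 2, with 5 reads, stood above the other p16 samples, which held 1 read each. The groups did not overlap. The means were 30.3 ± 13.2 and 1.6 ± 1.53 (SD, n = 4), with 131 and 8 reads in all, and the reads were 20.1-fold higher in control cells (exact 95% counting interval 9.89 to 47.5). The log2 difference was -3.66, or -3.53 without the library labelled p16 replicate 1.

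*Fam78b* (ENSMUSG00000060568, 2 or 3 exons, plus strand, chr1:167001417-167091302) was read at 0.7, 0.0, 0.0 and 1.5 in control cells and at 8.8, 7.8, 15.1 and 5.8 in p16 cells. The control libraries held 2 reads in all, from replicates 1 and 4, and each p16 library held 7 or more. The reads were 18.4-fold higher in p16 cells (exact 95% counting interval 4.80 to 156.3), and the log2 difference was 2.78, with or without the library labelled p16 replicate 1. No other annotated gene overlapped the span of any of the 5 genes.

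**Figure D1:**
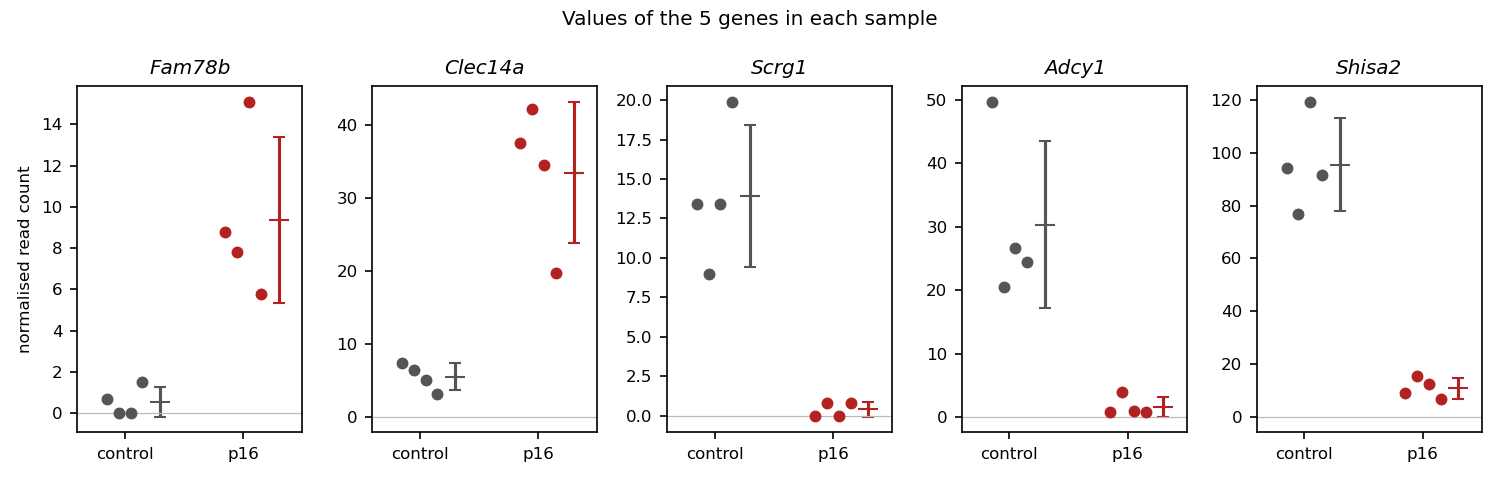
Normalised read count (vertical axis, a separate linear scale for each gene) of the 5 genes in the 4 control and 4 p16 samples; points are samples in replicate order, and the bar beside them is the mean ± SD. *Fam78b* and *Clec14a* were higher and *Scrg1*, *Adcy1* and *Shisa2* lower in every p16 sample than in any control sample.

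All 5 genes had groups that did not overlap, 2 with p16 above and 3 with p16 below, which follows from how they were chosen. Among the 12782 entries tested, 4.19% had every p16 sample above every control sample and 5.63% had every p16 sample below. The limma fit over all entries called 159 entries higher and 334 lower in p16 cells at an adjusted p under 0.05, which is 1.24% and 2.61%. Without the library labelled p16 replicate 1 these counts were 69 and 192, without control replicate 1 they were 86 and 177, and without p16 replicate 3 the count of higher entries was 99. By log2 difference, *Fam78b* and *Clec14a* ranked 2 and 4 among the entries higher in p16 cells, and *Adcy1*, *Scrg1* and *Shisa2* ranked 2, 5 and 15 among those lower.

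The relatives of the 5 genes, which were not part of the choice, were taken from lists of families, partners and pathways. These lists were drawn up with earlier results of these data known. Of 81 such genes 57 were tested, and 7 were called, 3 higher and 4 lower in p16 cells, each with groups that did not overlap. Over all entries tested 1.24% were called higher and 2.61% lower. Without control replicate 1 or without the library labelled p16 replicate 1, 4 were called.

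Beside *Clec14a*, 2 of the 3 other group XIV lectins were tested and neither was called by limma, edgeR or DESeq2, with 1 at an unadjusted limma p under 0.05. *Thbd*, the thrombin receptor thrombomodulin, was read at 86.1, 66.7, 81.8 and 91.7 in control and at 99.1, 109.3, 116.2 and 108.5 in p16 cells (limma, adjusted p = 0.119). Its groups did not overlap, but the difference did not pass the threshold. *Cd93* and *Cd248* held at most 3 reads in any sample, and so did the partner of *Clec14a*, *Mmrn2*. *Bst1*, linked to *Scrg1*, ranged from 0.0 to 14.1 in control and from 0.9 to 8.6 in p16 cells (adjusted p = 0.983), and its direction turned with the setting. *Fam78a*, the paralogue of *Fam78b*, held at most 2 reads in any sample.

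Of the 14 Fgfr and Frizzled receptors, which Shisa proteins can retain, 12 were tested. Of these 1 was called higher and 4 lower, against 1.24% and 2.61% of all entries tested. Their median log2 difference was -0.127 against -0.003 over all entries tested. The paper had already reported lower mRNA of Frizzled receptor genes in GFP-expressing p16 cells, so the count of lower receptors is not an independent look. *Fzd2* was 363.4 ± 92.7 in control and 179.5 ± 20.8 in p16 cells (SD, n = 4; limma, adjusted p = 0.00292), and *Fzd7* was 488.7 ± 72.7 and 283.6 ± 68.8 (adjusted p = 0.0108). Both were lower in each p16 sample than in each control sample. *Fzd4* was read at 6.7, 5.1, 6.7 and 7.6 in control cells and at 0.0, 0.0, 0.9 and 0.8 in p16 cells, where no library held more than 1 read (adjusted p = 0.0042). *Fzd10* went the other way, at 369.5 ± 31.0 in control and 551.3 ± 57.4 in p16 cells (adjusted p = 0.00516). *Fzd1* fell by 0.50 on the log2 scale (adjusted p = 0.0236), a call that was lost without control replicate 1, 3 or 4 (adjusted p = 0.0739, 0.0735 and 0.0707), without the library labelled p16 replicate 1 (adjusted p = 0.0907) and with samples scaled to equal totals (adjusted p = 0.0506). The *Fzd1* call was also lost without replicate 3 of both groups (adjusted p = 0.111). *Fgfr2*, the receptor of this list with the most reads, was 644.7 ± 80.5 and 784.8 ± 107.4 (adjusted p = 0.23).

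Of the 10 other Shisa family genes 3 were tested and none was called by limma, with 1 at an unadjusted p under 0.05, 0 called by edgeR and 1 by DESeq2. *Shisa5*, which held nearly all reads of these 10 genes, was 573.3 ± 60.6 in control and 728.5 ± 49.3 in p16 cells (SD, n = 4, limma adjusted p = 0.0708). It was above in each p16 sample, opposite in direction to *Shisa2*, and was the gene called by DESeq2 (adjusted p = 0.031). It was also called by limma with samples scaled to equal totals (adjusted p = 0.0325) and with the replicate block (0.0372). The other Shisa genes tested, *Shisa4* and *Shisa7*, held at most 5 reads in any sample.

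Of the 9 other adenylyl cyclases 4 were tested, with 1 called higher, against 1.24% of all entries tested. *Adcy3* was the gene called, at 81.2 ± 11.8 in control and 120 ± 11.6 in p16 cells (SD, n = 4, limma adjusted p = 0.0346). Its call was lost without control replicate 1, 2 or 3 (adjusted p = 0.119, 0.0825 and 0.0518) and without the library labelled p16 replicate 1 or p16 replicate 3 or 4 (adjusted p = 0.0927, 0.112 and 0.0517). The *Adcy3* call was also lost without replicate 3 of both groups (adjusted p = 0.139). *Adcy6*, *Adcy7* and *Adcy9* had overlapping groups and were not called. With *Adcy1* left out, the summed cyclase values were 158.7, 197.6, 198.7 and 181.9 in control and 219.1, 200.6, 263.3 and 214.7 in p16 cells.

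Further along the cAMP pathway, 9 genes near the cyclases, most of them G protein subunits, were tested. Of these 1 was called higher, against 1.24% of all entries tested. *Gnai1*, a G protein subunit that inhibits cyclases, was 255.9 ± 26.2 and 366.7 ± 43.1 (SD, n = 4; adjusted p = 0.02), a call lost without control replicate 1 (adjusted p = 0.0727) or the library labelled p16 replicate 1 (adjusted p = 0.0801). *Gnas*, the stimulating subunit with the most reads of this list, was 2392 ± 215 and 2432 ± 37.5 (adjusted p = 0.926). None of 11 protein kinase A and Epac genes, 8 phosphodiesterases and 7 nuclear factors tested was called by limma, edgeR or DESeq2, with 2, 3 and 1 at an unadjusted limma p under 0.05, and among the genes with the most reads *Prkar1a*, *Pde4b* and *Crebbp* had adjusted p = 0.943, 0.183 and 0.12. Of these, *Pde4b* was called with the replicate block (adjusted p = 0.0262) and *Crebbp* without control replicate 3 (adjusted p = 0.0437).

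**Figure D2:**
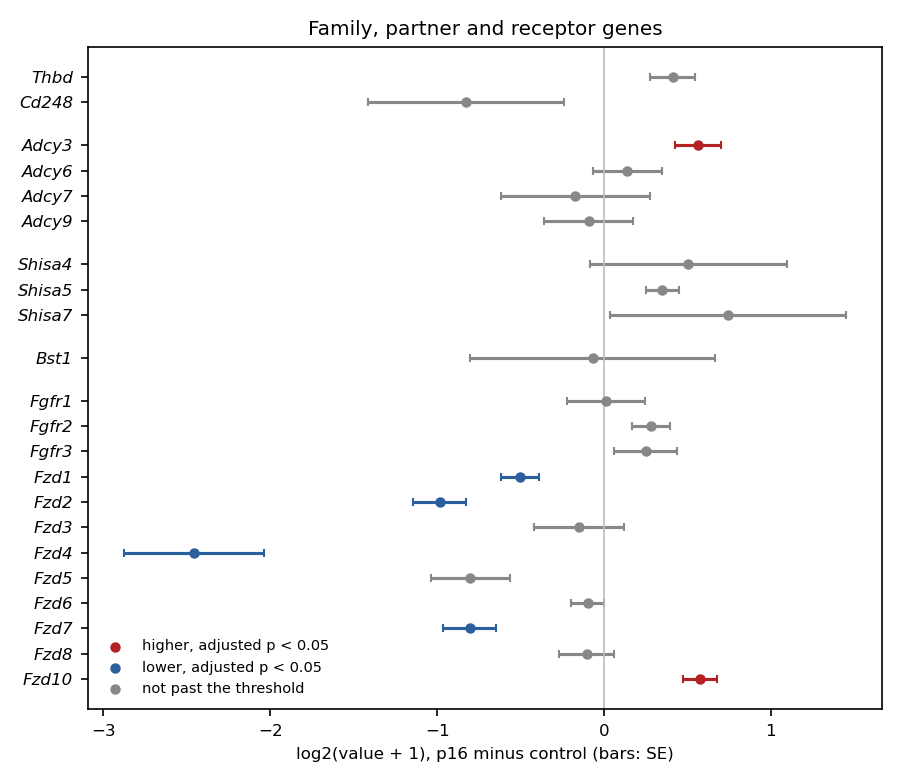
Log2 difference, p16 minus control, on the scale of log2(value + 1), with its SE (bars), for the tested relatives and receptors; red and blue mark genes called higher and lower by limma. *Fzd1*, *Fzd2*, *Fzd4* and *Fzd7* lie on the lower side and *Fzd10* and *Adcy3* on the higher side.

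The nearest tested gene on each side of the 5 genes was examined by position. Of these 10 neighbours 1 was called, against 1.24% of all entries tested called higher and 2.61% called lower. *Atp8a2*, encoding a phospholipid flippase, lies 6880 bases beyond *Shisa2* on the opposite strand, and was read at 10.4, 7.7, 11.7 and 7.6 in control and at 1.6, 1.6, 0.0 and 0.8 in p16 cells (limma, adjusted p = 0.00379). Like *Shisa2* it was lower in every p16 sample. Whether the counting used strand is not given in the sources used here, but the 2 genes do not overlap in the annotation. On the other side of *Shisa2*, *Cdadc1* was 36.7 ± 3.39 and 32.0 ± 8.03 (SD, n = 4; adjusted p = 0.675).

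*Sstr1*, the somatostatin receptor gene 50276 bases from *Clec14a*, was listed at 0.0 in all control samples and at 3.2, 0.8, 3.5 and 1.6 in p16 cells (adjusted p = 0.102), and *Sec23a* on the other side had adjusted p = 0.583. Beside *Scrg1*, *Sap30* lies 5122 bases away and was 33.8 ± 1.73 and 36.2 ± 8.32 (SD, n = 4; adjusted p = 0.914), and *Fbxo8* had adjusted p = 0.827. *Igfbp3*, 27580 bases from *Adcy1*, was read at 132.8, 137.3, 135.3 and 160.4 in control and at 203.1, 124.9, 148.1 and 395.5 in p16 cells (adjusted p = 0.406), with overlapping groups. *Ramp3* on the other side of *Adcy1* had adjusted p = 0.597. Around *Fam78b*, *Pogk* and *Uck2* had adjusted p = 0.706 and 0.391.

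Promoter sequence from RefSeq (GRCm38.p6) was matched for 3 of the 5 genes, *Adcy1*, *Clec14a* and *Shisa2*. The 250 bases before the start were searched on both strands for CTTTGNT, the core bound by TCF/LEF factors, for TTTNNCGC, an E2F core, for TGACG, a cAMP response half-site, for TATAAA and for the GC box GGGCGG. Each promoter held matches to only 1 of these motifs, so no match overlapped one of another motif. The windows of 30 bases show, 5′ to 3′ and with the motif in capitals, the match nearest to each start, since these genes differed between the groups.
Shisa2: cactgccacacCTTTGGTgaaggaaagtga
Clec14a: tacaaattatacTGACGccagctccacagt
Adcy1: agtgcgcaggcgcggcGGGCGGgaggggac
The *Shisa2* window lies at chr14:59625177-59625206 on the plus strand, and its loosened motif is found in 16% of the 32851 promoters. The *Shisa2* match has G at the open position, so it is not the usual TCF/LEF core. The *Clec14a* window lies at chr12:58269294-58269323 on the minus strand (17.8% of promoters), and the *Adcy1* window at chr11:7063403-7063432 on the plus strand (32.7% of promoters), where 3 GC boxes were found. The remaining motifs had no match in these promoters. In the same 250 bases the *Adcy1* promoter held 26 CpG pairs, more than 90.4% of promoters, the *Shisa2* promoter 14 and the *Clec14a* promoter 4, against a median of 6. A match is a description of letters and not a binding site.

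Genes with a pattern like that of each gene were found by Pearson r of log2(value + 1) over the 8 samples, among entries with a mean of at least 10. These r values are descriptions over samples that share group and library, and they rest largely on the difference between the groups, so r on the deviations from the group means is given too. The deviations of *Fam78b* in control cells and of *Scrg1* in p16 cells rest on 2 reads a group. Their r on deviations thus depends in part on single reads. The genes named are also the closest of 10430 or 10431 compared, a choice that raises both r values. *Fam78b* was closest to *Dcn*, which encodes the matrix proteoglycan decorin (r = 0.99, on deviations 0.92), then to *Ski* (0.98 and 0.97) and 4931428F04Rik (0.98 and 0.95). *Dcn* was read at 5.9, 2.6, 4.2 and 10.7 in control and at 85.6, 89.8, 203.0 and 36.2 in p16 cells, highest in p16 replicate 3, as was *Fam78b*.

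*Clec14a* was closest to *Etv4*, an ETS transcription factor (r = 0.99, on deviations 0.86), to *Shroom3*, an actin-binding shape regulator (0.97 and 0.78), and to the cytokine *Il34* (0.97 and 0.75). *Etv4* was 62.2 ± 10.2 in control and 157.1 ± 27.3 in p16 cells (SD, n = 4), and p16 replicate 4 was the lowest p16 sample for all 3 and for *Clec14a*. *Scrg1* was closest to *Cmtm8* (0.99 and 0.84), to the T-box factor *Tbx1* (0.99 and 0.83) and to the stearoyl-CoA desaturase *Scd1* (0.99 and 0.77). *Adcy1* was closest to the glypican *Gpc6* (0.99 and 0.85), *Mgst1* (0.99 and 0.82) and the ceramide synthase *Cers4* (0.98 and 0.87), and *Shisa2* to *Mfge8* (0.99 and 0.93), *Mgst1* (0.98 and 0.80) and *Cyp1b1* (0.98 and 0.80). *Mgst1* was thus shared by *Adcy1* and *Shisa2*, and was 460.9 ± 23.5 in control and 136.7 ± 46.4 in p16 cells.

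Markers of other cells were examined beside the 5 genes. Among the markers of the hair-follicle bulge, 9 of 12 were called lower by limma, against 2.61% of all entries tested, and their summed values were 13252, 16871, 12922 and 16971 in control and 9457, 9675, 9565 and 9614 in p16 cells, most of it *Krt15*. *Cd34*, a defining marker, was read at 238.9, 174.5, 121.9 and 140.6 in control and at 8.8, 14.1, 8.0 and 16.4 in p16 cells (adjusted p = 3.27e-06), while *Lgr5* was not called (adjusted p = 0.241). Like *Scrg1*, *Adcy1* and *Shisa2*, the bulge sum was lower in each p16 sample than in each control sample. The call of *Krt15* was lost without control replicate 2 or 4 (adjusted p = 0.126 and 0.128), the library labelled p16 replicate 1 (0.125) or p16 replicate 2 or 3 (0.0972 and 0.126), and with no filter on low values (0.0786) or a pseudocount of 0.1 (0.0516). That of *Sox9* was lost without control replicate 1, 3 or 4 (adjusted p = 0.0867, 0.0775 and 0.0896) or the library labelled p16 replicate 1 (0.0864), and that of *Foxc1* without the same libraries (0.0788, 0.0786, 0.0755 and 0.0941), and both were lost with equal totals (0.0507 and 0.0509). That of *Fgf18* was lost without control replicate 1, 2 or 3 (adjusted p = 0.0727, 0.0528 and 0.0777) or the library labelled p16 replicate 1 (0.0578), or with a pseudocount of 0.1 (0.0612). Without replicate 3 of both groups the calls of *Krt15*, *Sox9*, *Foxc1*, *Fgf18* and *Nfatc1* (adjusted p = 0.061 for *Nfatc1*) were lost. *Cd34*, *Lhx2*, *Dkk3* and *Tbx1* kept their calls under each alternative run.

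For the upper hair follicle 3 of 6 markers were called lower by limma, against 2.61% of all entries tested. Their sums were 13400, 13501, 15532 and 19600 in control and 12193, 12453, 14502 and 11712 in p16 cells, led by *Krt17*, and the sums overlapped between the groups. *Defb6* kept its call without any single library and without replicate 3 of both groups. The latter setting ended the calls of *Plet1* and *Gata6*. The call of *Plet1* was lost without control replicate 1, 3 or 4 (adjusted p = 0.125, 0.111 and 0.107), the library labelled p16 replicate 1 (0.137) or p16 replicate 3 or 4 (0.0678 and 0.0589), or with equal totals (0.0636), and that of *Gata6* without control replicate 1, 3 or 4 (0.0674, 0.0735 and 0.06), the library labelled p16 replicate 1 (0.0608) or p16 replicate 3 (0.0559).

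Of the sebaceous gland markers 6 of 8 were called lower by limma, against 2.61% of all entries tested. Their sums were 766.3, 713.6, 805.9 and 707.3 in control and 141.5, 311.6, 168.5 and 135.6 in p16 cells, led by *Mgst1*. *Mgst1*, *Elovl3*, *Pparg*, *Far2* and *Cidea* kept their calls under each alternative run. The defining marker *Mc5r* held at most 3 reads in any control sample and 0 in every p16 sample and was called only with no filter on low values (adjusted p = 0.0733, and 0.0107 with no filter), and *Awat2* was called lower but lost its call without control replicate 3 or 4 (adjusted p = 0.0653 and 0.0589), the library labelled p16 replicate 1 (0.0682) or p16 replicate 3 (0.0563), or by DESeq2 (0.0548). Of 6 melanocyte markers tested 2 were called lower, against 2.61% of all entries tested. The melanocyte list summed to 522.3, 220.9, 133.5 and 256.6 in control and to 72.0, 142.9, 73.7 and 48.4 in p16 cells, led by the defining marker *Dct*. The call of *Dct* was lost without control replicate 1 or 4 (adjusted p = 0.0727 for each), the library labelled p16 replicate 1 (0.0745) or p16 replicate 3 (0.0654), and that of *Tyrp1* without control replicate 1, 2 or 4 (0.107, 0.0569 and 0.058), the library labelled p16 replicate 1 (0.0593) or p16 replicate 3 (0.0628), by edgeR (0.0501) and with a pseudocount of 0.1 (0.0801). The calls of *Awat2* and *Tyrp1* were also lost without replicate 3 of both groups. The p16 sample with the highest sebaceous and melanocyte sums, replicate 2, was also the p16 sample with the highest *Adcy1*, at 5 reads, and *Shisa2*. In control cells the sebaceous sum and *Shisa2* were highest in replicate 3, where the melanocyte sum was lowest. The melanocyte sum and *Adcy1* were highest in control replicate 1, so the control samples did not repeat the p16 pattern for both sums and both genes. The part of bulge, upper follicle, sebaceous and melanocyte cells in the lower values of *Scrg1*, *Adcy1* and *Shisa2* was not tested.

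Other lists held few reads or did not differ together. For comparison with the counts in these lists and those of the next paragraph, 1.24% of all entries tested were called higher and 2.61% lower. Among 18 endothelial markers 6 were tested and none was called by limma, edgeR or DESeq2, with 1 at an unadjusted limma p under 0.05. The defining marker *Cdh5* was listed at 0.0 in all 8 samples, *Pecam1* ranged from 1.3 to 6.4, and the sums were 29.7, 21.9, 31.7 and 33.5 in control and 42.4, 32.9, 26.6 and 27.1 in p16 cells, led by *Flt1*. These sums overlapped between the groups, and the part in the values of *Clec14a* of any endothelial cells left after the CD31 gate was not tested. Of 10 chondrocyte markers, which bear on *Scrg1*, 7 were at 0.0 throughout, and the sums were at most 4.4 in any sample, led by *Col2a1*. *Col2a1* was the 1 gene tested and was not called (limma, unadjusted p = 0.0866, adjusted p = 0.404). It had no value by edgeR or DESeq2. Fibroblast markers, 1 of 6 tested called lower, summed to 209.9, 168.3, 157.7 and 268.9 in control and to 123.2, 126.5, 146.3 and 229.4 in p16 cells, led by *Col6a1*, and these sums overlapped. The defining fibroblast marker *Col1a1* was read at 2.2, 2.6, 0.8 and 1.5 in control and at 6.4, 2.3, 11.5 and 2.5 in p16 cells (adjusted p = 0.285), and *Pdgfra* was at most 1.3 in control and at most 3.5 in p16 cells (adjusted p = 0.756). Other collagen markers went the other way, with *Col1a2* at 17.8, 10.3, 4.2 and 9.2 in control and 1.6, 3.1, 2.7 and 3.3 in p16 cells (adjusted p = 0.0571) and *Col3a1* at 0.7, 1.3, 0.8 and 4.6 and at 0.0, 1.6, 0.0 and 0.8 (adjusted p = 0.572), and the median log2 difference of the tested fibroblast markers was -0.435. *Col1a1* and *Pdgfra* were highest in p16 replicate 3, as were *Fam78b* and *Dcn*, and the part in those values of any fibroblasts left after the CD140a gate was not tested. The marker called lower was *Fbln1*, whose call was lost without control replicate 1, 2 or 4 (adjusted p = 0.127, 0.0849 and 0.136), the library labelled p16 replicate 1 (0.144) or p16 replicate 4 (0.073), and also by edgeR (0.0505), with no filter on low values (0.053), a pseudocount of 0.1 (0.0528), equal totals (0.0557) or the replicate block (0.0526).

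Dermal papilla markers summed to 61.6, 61.6, 33.4 and 52.0 in control and 33.6, 35.9, 27.6 and 37.0 in p16 cells, led by *Rspo3*, with *Corin* at 0.0 throughout and *Crabp1*, 1 of 2 tested, called lower. Schwann cell and glia markers summed to 232.9, 238.7, 205.4 and 191.0 and to 252.6, 216.3, 209.3 and 373.3, led by *Ngfr*, with 1 of 6 tested, *S100b*, called lower and its call lost without any single library but p16 replicate 2 (adjusted p = 0.0725 to 0.128), by DESeq2 (0.215), and with a pseudocount of 0.1 (0.126), equal totals (0.0535) or the replicate block (0.0657). The call of *S100b* was also lost without replicate 3 of both groups. The defining glia marker *Sox10*, not called by limma (adjusted p = 0.0733), was called lower by DESeq2 (0.0339), with the replicate block (0.0214) and without control replicate 3 (0.0372). T cell markers summed to 14.8, 18, 16.6 and 7.6 and to 11.2, 14.1, 4.5 and 9, led by *Cd3d*, and Langerhans and myeloid markers to 147.6, 159.2, 153.6 and 133.0 and to 191.1, 190.5, 144.5 and 144.7, led by *Cd74*, with none called by the 3 tools and 1 in each list at an unadjusted limma p under 0.05. The defining Langerhans marker *Cd207*, at 0.7, 0.0, 0.8 and 0.0 in control and 2.4, 4.7, 1.8 and 3.3 in p16 cells (adjusted p = 0.0922), was called with no filter on low values (0.03). Basal keratinocyte markers, none of 8 called by the 3 tools and 2 at an unadjusted limma p under 0.05, summed to 24808, 37994, 28128 and 42045 in control and to 28379, 26933, 30460 and 30761 in p16 cells, and differentiated ones, 1 called higher (*Lor*) and 2 lower (*Ivl* and *Sbsn*) of 8, to 7470, 6706, 9171 and 7156 and to 7977, 6964, 8928 and 10353. The defining marker *Krt1*, not called by limma (adjusted p = 0.0952), was called higher by DESeq2 (0.0418), with the replicate block (0.00619), without control replicate 3 (0.0408) and without p16 replicate 2 (0.0391). The call of *Ivl* was lost without control replicate 1 or 3 (adjusted p = 0.061 and 0.073) or the library labelled p16 replicate 1 (0.0685). Without replicate 3 of both groups the calls of *Ivl* (adjusted p = 0.0976) and *Sbsn* (0.0544) were lost. The part of these cells in the values of the 5 genes was not tested.

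**Figure D3:**
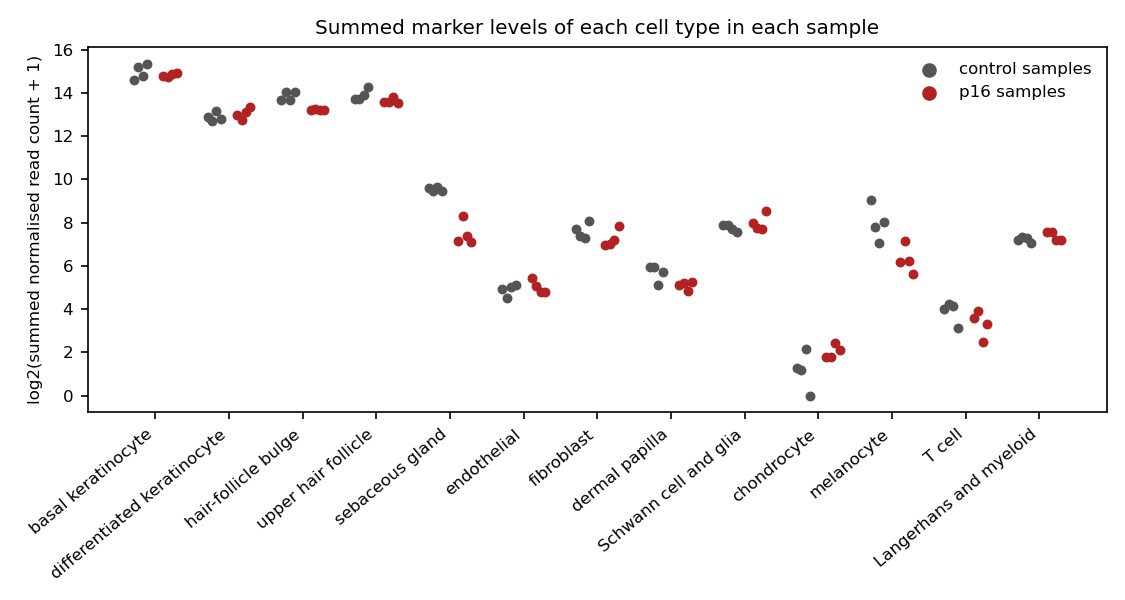
Summed normalised read count of each marker list, as log2(sum + 1), in the 4 control (grey) and 4 p16 (red) samples, each point 1 sample. The sebaceous and bulge sums lie lower in every p16 sample, while the endothelial and chondrocyte sums overlap between the groups.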

How the data were processed

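GFP-expressing keratinocytes of 8 pooled samples were analysed; 13 samples of a second profiling were not analysed here. The authors prepared 3′ libraries, trimmed reads with Cutadapt and, per the labels, aligned them with TopHat2 to GRCm38, counted them with HTSeq and tested genes with DESeq2, with versions not given in the sources used here. The authors deposited a signal for each gene, its reads scaled by the depth of the sample, with 1 decimal. The authors' group means, log2 fold change, score (a test statistic), p-value and adjusted p-value, also in the deposited table, were not used. The study's methods place the 4 samples of each group in 3 experiments, and which sample came from which is not given in the sources used here, so experiment could not be entered as a term. No source used here says whether samples shared mice, so p-values measure only the spread between these samples.

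Values were divided by the value of 1 read in each sample, and 99.98% of values came out whole within 0.05. Differences were fitted with limma 3.58.1 (R 4.3.3, eBayes with trend) on log2(value + 1) for 12782 entries with a mean of at least 1, adjusted by Benjamini-Hochberg at 0.05, with no covariate. The fit was tested on simulated data. The edgeR 4.0.16 quasi-likelihood test with TMM on the recovered reads called 459 of 10700 entries, against 493 by limma, and DESeq2 1.42.0 was also run. Alternatives were the pseudocount, the filter, scaling to equal totals, a replicate block and leaving out samples. Counting intervals were exact (scipy 1.17.1), and positions came from GENCODE M21, the build of the files. List genes were matched by Ensembl identifier, 201 of 203; list genes that are withheld are not reported here.

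The genes named are the 5 genes, every called gene of the family, partner and pathway lists and the tested gene with the most reads in each, the nearest tested neighbour on each side, the 3 genes most alike in pattern, and the defining, most abundant and called markers. A few others were named after their values were seen. The 5 genes and the lists were chosen with earlier results of these data known, and the promoter motifs were chosen after the promoter sequences were at hand.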

Additional observations from a re-analysis of the deposited data

Results flagged for a closer look

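Samples that stood far from the other 3 of their group were looked for in 208 groups of values named in the text, where chance marks about 1 in 20 groups, and 12 were found. Among the 5 genes, *Adcy1* was marked in p16 replicate 2, at 3.9 against 0.8 to 0.9 in the other p16 samples. In the same sample *Mgst1* (205.3 against 102.8 to 119.7), *Elovl3* (17.2 against 4.8 to 5.8) and *Dct* (47.6 against 9.0 to 14.4) were above the rest. In p16 replicate 4, *Sap30* (48.5), *Col6a1* (193.2) and *Ngfr* (224.5) were above the other p16 samples, and *Nfatc1* was highest in p16 replicate 1 (215.9). In control cells, *Il34* (89.8) and *Col2a1* (0.7, 1 read) were highest in replicate 1, *Igfbp3* (160.4) was highest in replicate 4, and *Plet1* (173.3) was lowest in replicate 2.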

How the results depend on the processing

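The 5 genes kept their direction in every alternative run, which their choice on this contrast fixes. With a pseudocount of 0.1 the log2 differences were 4.73 for *Fam78b*, -5.49 for *Scrg1* and -4.42 for *Adcy1*; DESeq2 gave 4.18 for *Fam78b* and -5.07 for *Scrg1*, and edgeR gave -4.73 for *Scrg1*, while *Fam78b* was left out by its filter on low counts. Leaving out 1 sample gave 2.54 to 3.05 for *Fam78b*, 2.21 to 2.64 for *Clec14a*, -3.60 to -3.25 for *Scrg1*, -4.01 to -3.40 for *Adcy1* and -3.26 to -2.88 for *Shisa2*. It gave 69 to 196 entries called higher, 177 to 343 called lower and 4 to 7 called relatives, and without replicate 3 of both groups these were 66, 157 and 5, with fewer samples in the fit. In that setting the log2 difference of *Fam78b* was 2.37, below its range with 1 sample left out, and the other members stayed within theirs. Of the neighbours, 0 were called by edgeR, which did not test *Atp8a2*, and 2 with no filter, *Sstr1* being added (adjusted p = 0.0214). Pairing by replicate number was not shown by the values, since samples of the same number deviated together with r of 0.055, 0.004, 0.046 and 0.083; numbers 3 and 4 correlated best with their own number and numbers 1 and 2 did not. The labels tie only number 3 across the groups, by its library wording, and the study's methods describe the groups as siblings kept together, without saying which samples belong together. With the replicate block 216 entries were called higher and 392 lower, 9 relatives were called, and the log2 differences were as without it (2.78 for *Fam78b*, 2.41 for *Clec14a*, -3.43 for *Scrg1*, -3.66 for *Adcy1* and -3.07 for *Shisa2*). The best likeness of each gene ranged over left-out samples from 0.981 to 0.997, and with a pseudocount of 0.1 it was 0.949 for *Fam78b* with *Dcn* and 0.955 for *Scrg1* with *Cmtm8*; since the group difference holds these r near 1, the ranges say little about stability. Of 86 tested genes on which the alternatives were run, 44 were called, and 27 of these kept their call under each alternative that tested them; 0 called genes turned direction. Genes not called turned as follows. *Bst1* was 0.49 with a pseudocount of 0.1, 0.58 without replicate 3 of both groups and -0.90 to 0.43 with 1 sample left out. *Prkar1a* was 0.014 with equal totals, 0.0041 without replicate 3 and -0.057 to 0.0015 with 1 sample left out. *Cd3e* was 0.28 with a pseudocount of 0.1 and -0.44 to 0.12 with 1 left out, and *Col6a1* 0.027 by DESeq2, 0.026 by edgeR, 0.015 without replicate 3 and -0.46 to 0.068. With 1 sample left out, *Gnas* ranged from -0.029 to 0.074, *Sap30* from -0.076 to 0.13, *Krt10* from -0.0025 to 0.28, *Krt79* from -0.20 to 0.0086 and *Csf1r* from -0.60 to 0.17. The cause of these turns was not tested. Depth limits genes with few reads, as *Fam78b* in control cells and *Scrg1* in p16 cells at 2 reads a group.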
